A study of Rattus norvegicus with 6 samples.

Results

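Grem1 and 8 genes of the bone morphogenetic protein (BMP) pathway were followed in rat neonatal cardiomyocytes after siRNA transfection. The members were the antagonist Grem1, the ligands Bmp2, Bmp4 and Bmp6, the receptors Bmpr1a and Bmpr2, and the targets Id1, Id2 and Id3. They were found by gene name, together with every unannotated row, a transcript without a gene name that the authors added, that overlapped a member on the same strand. This gave 9 annotated genes and 4 unannotated rows, 13 of the 43035 rows of the count table, of which 32883 were annotated genes and 10152 were unannotated rows. The genes had been selected on their levels and log2 fold changes in these same libraries, so their differences are described here with intervals and without p-values.

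Primary cardiomyocytes from hearts of Sprague-Dawley (SD) rats at postnatal day 1 were transfected with siRNA against the kinase DYRK1A (si-DYRK1A) or with scramble siRNA (si-NC), and RNA was collected after 48 h. Each group held 3 libraries that the labels call biological replicates, and no source used here says how many hearts each culture came from. The labels give no genetic change in the cells, 1 siRNA target was compared with 1 control, and other heart cells remain in such cultures after enzymatic digestion and differential attachment. The comparison asked which mRNAs differed in level between si-DYRK1A and si-NC cells.

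BMP ligands are secreted dimers that bring type I receptors such as Bmpr1a and type II receptors such as Bmpr2 together at the cell surface. The activated receptors phosphorylate Smad1, Smad5 and Smad9, which enter the nucleus with Smad4 and raise transcription of the Id genes. Gremlin-1, the product of Grem1, is a secreted protein that binds BMP2 and BMP4 and keeps them from their receptors. In the heart, BMP signals are known for their part in the induction of the cardiac lineage and in the formation of the valves.

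The sequence just before the start of 4 members is shown because Grem1 had the largest difference of the 9 genes and the Id genes are known targets of the pathway. The stretches are from RefSeq on the build GRCr8, 5′ to 3′, up to 250 bases before the annotated gene: Grem1 at chr3:120978320-120978569 (minus strand), Id1 at chr3:161671314-161671524 (plus strand), Id2 at chr6:47470996-47471245 (minus strand), Id3 at chr5:153656041-153656252 (plus strand). The table held 8 of the 9 members and not Bmp2. Capitals mark 3 motifs that were searched on both strands: GGCGCC, a GC-rich motif known to bind Smad1 and Smad5, CCAAT and TATAAA, the last 2 being general promoter elements.
Grem1: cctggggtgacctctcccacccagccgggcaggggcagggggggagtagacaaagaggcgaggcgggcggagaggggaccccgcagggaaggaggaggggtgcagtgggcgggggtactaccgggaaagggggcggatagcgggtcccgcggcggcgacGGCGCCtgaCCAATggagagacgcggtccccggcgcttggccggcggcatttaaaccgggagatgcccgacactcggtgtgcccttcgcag
Id1: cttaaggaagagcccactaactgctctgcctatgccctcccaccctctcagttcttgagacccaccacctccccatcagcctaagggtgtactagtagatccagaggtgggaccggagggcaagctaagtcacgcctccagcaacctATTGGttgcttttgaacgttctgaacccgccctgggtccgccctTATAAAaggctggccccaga
Id2: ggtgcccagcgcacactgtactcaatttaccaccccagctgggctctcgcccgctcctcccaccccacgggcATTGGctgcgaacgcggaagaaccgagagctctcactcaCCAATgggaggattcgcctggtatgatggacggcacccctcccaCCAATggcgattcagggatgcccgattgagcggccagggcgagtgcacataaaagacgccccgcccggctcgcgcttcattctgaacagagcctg
Id3: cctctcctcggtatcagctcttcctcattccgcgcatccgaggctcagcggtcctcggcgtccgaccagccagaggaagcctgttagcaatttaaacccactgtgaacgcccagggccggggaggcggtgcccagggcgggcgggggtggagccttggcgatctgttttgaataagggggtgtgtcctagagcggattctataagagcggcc
GGCGCC was present before Grem1 and in no promoter window of the other 7 members in the table, against 11% of 33469 rat promoter windows of 300 bases. CCAAT was present in 5 of the 8 windows and in 37.5% of all windows, and TATAAA in 2 of the 8 and in 14.2% of all. None of the 3 motifs was found in the stretch before Id3.

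The 6 libraries held 10325074 to 11921772 counts, and unannotated rows took 17.2% to 17.5% of them. Values below are CPM, counts scaled to a common library size with TMM normalization, and 3 counts in a library correspond to 0.251 to 0.288 CPM. Of 15513 rows with enough counts for testing, 2360 passed an adjusted p of 0.05 in the quasi-likelihood test of edgeR, 1245 higher and 1115 lower in si-DYRK1A. The targeted gene did not differ detectably. The annotated Dyrk1a row held at most 3 counts in a library, and the unannotated row that covers it had 74.5, 77.7 and 80.9 CPM in si-NC and 85.4, 80.1 and 81.7 CPM in si-DYRK1A (log2 fold change 0.08, SE 0.06, adjusted p = 0.374 with edgeR). The labels were therefore not checked by the RNA of their target in these libraries, and si-DYRK1A here means the libraries labelled so. The study assessed the knockdown by immunoblot of DYRK1A protein in such cultures at the same time after transfection, which is not part of these data.

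Both cardiomyocyte and other heart cell markers were present. Col1a1, a fibroblast collagen, had the highest mean count of all rows and Actc1, the cardiac actin, the second highest. The summed level of 11 listed cardiomyocyte markers, with any unannotated rows over them here and below, was 9064 to 9867 CPM in si-NC and 11562 to 12408 CPM in si-DYRK1A. Nppa alone made up most of that sum, with 7153 to 7882 CPM in si-NC and 9248.5 to 10158.5 CPM in si-DYRK1A. By edgeR 3 of the 4 annotated rows tested were higher, and none of the 4 unannotated rows tested was higher or lower. The atrial myosin light chain Myl7 was near 0 in all libraries. The summed level of 11 fibroblast markers was 22118 to 26861 CPM in si-NC and 20945 to 21666 CPM in si-DYRK1A. In it Col1a1 had means of 14341 CPM in si-NC and 11113 CPM in si-DYRK1A (adjusted p = 0.0869 with edgeR). Col3a1 had 9002 and 9127 CPM. Of the rows tested, 2 of the 7 annotated and 1 of the 6 unannotated were higher and none lower, and the median log2 fold change of the annotated rows was 0.14. Of the 9 listed endothelial markers 3 of 8 tested were lower, with sums of 196 to 217 CPM in si-NC and 167 to 176 CPM in si-DYRK1A and Flt1 near 0. Of the 6 epicardial markers 4 of 5 tested were lower, with sums of 94.1 to 101 CPM in si-NC and 64.0 to 72.6 CPM in si-DYRK1A and Upk1b at 0. Smooth muscle and pericyte markers summed to 2902 to 3144 CPM in si-NC and 2756 to 2895 CPM in si-DYRK1A, with Acta2 at 0, and 1 of 5 tested annotated rows was lower and 1 of 2 tested unannotated rows higher. Macrophage markers summed to 188 to 210 CPM in si-NC and 178 to 207 CPM in si-DYRK1A, with Cd68 at 0, and 1 of 7 tested rows was higher. Over all rows tested, 8.03% were higher and 7.19% lower. Myl7, Flt1, Upk1b, Acta2 and Cd68 each have an unannotated row over at least 90% of the gene, and both rows were at or near 0. Whether reads were lost where such rows overlap was not tested, so these values do not show that the genes were silent. The part of the marker shifts in the values below was not tested, and in bulk RNA fewer cells of a type and less RNA per cell cannot be told apart.

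Grem1 (ENSRNOG00000026053, chr3:105203309-105214989 on Rnor_6.0, minus strand) had by far the largest difference of the members. Its level was 171, 156 and 170.1 CPM in si-NC 1, 2 and 3, and 451, 414 and 444 CPM in si-DYRK1A 1, 2 and 3. The groups did not overlap and lay far apart. The difference was 1.40 on the log2 scale (SE 0.05, 95% interval 1.29 to 1.5), or 2.63-fold (2.45 to 2.82). Of 5754 tested annotated genes whose log2 CPM averaged at least 3, Grem1 had the 5th highest log2 fold change. It held 1787 to 5131 counts per library, and the fits that omitted any single library gave log2 fold changes of 1.35 to 1.43.

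Among the ligands, Bmp2 was the member with the largest difference after Grem1. Almost all of its counts lay in a unannotated row (chr3:126335006-126345866, plus strand) that spans 95.7% of the annotated gene (ENSRNOG00000021276) and carries the TGF-beta propeptide and ligand domains, whereas the annotated row held 0 to 2 counts per library. The unannotated row had 12.1, 14.0 and 14.1 CPM in si-NC and 20.5, 21.3 and 20.5 CPM in si-DYRK1A. The groups did not overlap, and the difference was 0.63 on the log2 scale (SE 0.11, 95% interval 0.41 to 0.85).

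Bmp4 (ENSRNOG00000009694, chr15:20776054-20822740, minus strand) was a ligand with low counts in these libraries. Its level was 6.33, 7.27 and 7.27 CPM in si-NC and 8.62, 8.85 and 9.0 CPM in si-DYRK1A, a log2 difference of 0.34 (SE 0.16, 95% interval 0.02 to 0.66) without overlap of the groups. A unannotated row over the whole gene held 7, 3 and 37 counts in si-NC and 8, 10 and 2 counts in si-DYRK1A, so that 1 library, si-NC 3, stood apart from the others there. With these counts added the groups overlapped and the log2 difference was 0.18 (SE 0.16, 95% interval -0.16 to 0.52), and without si-NC 3 the same sum gave 0.37 (SE 0.17).

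Bmp6 (ENSRNOG00000013717, chr17:26955142-27112820, minus strand), a ligand best known for its control of iron metabolism through hepcidin, had the highest level per length of the 3 ligands, as given further on in FPKM. Its level in CPM was 106, 100.5 and 93.3 CPM in si-NC and 99.3, 110.4 and 113 CPM in si-DYRK1A. The groups overlapped, and the log2 difference of 0.10 (SE 0.06) had a 95% interval of -0.02 to 0.23.

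**Figure D1:**
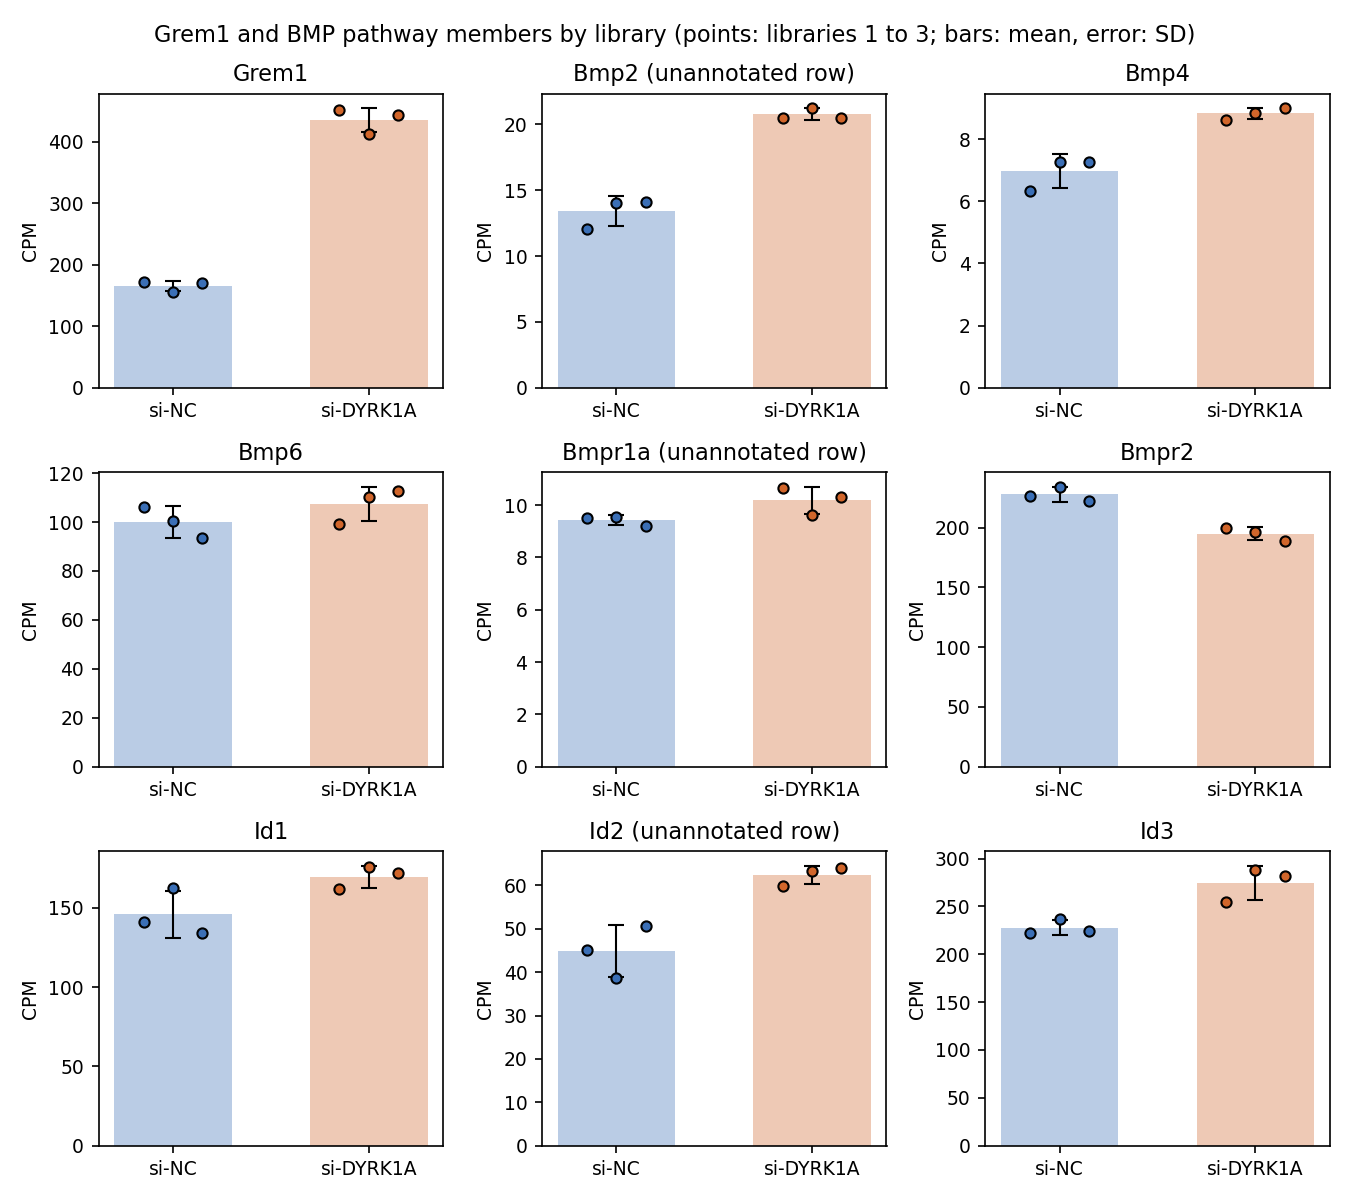
Level in CPM of the 9 member rows with enough counts for testing, in 3 si-NC (blue) and 3 si-DYRK1A (orange) libraries; points are libraries, bars are means and error bars are SD. Grem1 lies at 156 to 171 CPM in si-NC and 414 to 451 CPM in si-DYRK1A, Bmpr2 is the member whose si-DYRK1A libraries all lie lower, and the groups overlap for Bmp6 and Id1.

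Of the receptors, Bmpr2 was lower and Bmpr1a close to level. Bmpr2 (ENSRNOG00000022196, chr9:66568074-66676494, plus strand), the type II receptor for BMP ligands, had 226, 234 and 223 CPM in si-NC and 199.7, 196 and 189 CPM in si-DYRK1A. Every si-DYRK1A library lay below every si-NC library, with a log2 difference of -0.22 (SE 0.05, 95% interval -0.32 to -0.13). The annotated row of the type I receptor Bmpr1a (ENSRNOG00000052469) held 0 counts in all libraries, and a unannotated row over the whole gene (chr16:10755626-10852203, minus strand), with the receptor and kinase domains, held 99 to 121 counts. That row had 9.49, 9.56 and 9.20 CPM in si-NC and 10.6, 9.61 and 10.3 CPM in si-DYRK1A. The groups did not overlap but lay close together, and the log2 difference of 0.11 (SE 0.14) had a 95% interval of -0.17 to 0.40.

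The Id genes encode helix-loop-helix proteins without a DNA-binding region, which hold back differentiation factors of the same family, and they are classic early targets of BMP signalling. Id3 (ENSRNOG00000026124, chr5:154489590-154491223, plus strand) had 222, 237 and 225 CPM in si-NC and 254, 288 and 282 CPM in si-DYRK1A, without overlap. Its log2 difference was 0.27 (SE 0.05, 95% interval 0.17 to 0.37).

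Id2 was read from a unannotated row with a helix-loop-helix domain (chr6:44359533-44361908, minus strand). That row covers 15.4% of the annotated span of ENSRNOG00000007237, whose own row held 0 to 2 counts. Its level was 45.2, 38.6 and 50.8 CPM in si-NC and 60.0, 63.3 and 64.0 CPM in si-DYRK1A, and the groups did not overlap. The log2 difference was 0.48 (SE 0.08, 95% interval 0.30 to 0.65).

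Id1 (ENSRNOG00000021750, chr3:148215540-148216718, plus strand) had 141, 163 and 134 CPM in si-NC and 162, 176 and 172 CPM in si-DYRK1A. The groups overlapped by a small margin, because si-NC 2 lay just above si-DYRK1A 1, and the log2 difference was 0.22 (SE 0.06, 95% interval 0.08 to 0.35). The Id sum, Id1, Id2 and Id3 together per length, was 398 ± 21.5 FPKM in si-NC and 476 ± 26.0 FPKM in si-DYRK1A (SD, n = 3).

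Of the 13 member rows, 9 had enough counts for testing and 4 did not, namely the annotated rows of Bmp2, Bmpr1a and Id2 and the unannotated row of Bmp4. Of the 9, 5 were higher and 1 was lower past the threshold, against 8.03% and 7.19% of all rows tested. Bmp4, Bmp6 and the unannotated row of Bmpr1a were not past the threshold. All 3 si-DYRK1A libraries lay above all si-NC libraries in 6 rows and below them in 1 row, against 16.2% and 15.3% of all rows tested. The median log2 difference of the 9 rows was 0.27, and that of all rows tested was 0.0020. Id1 was past the threshold in only 2 of the 6 fits that left out a library, those without si-NC 2 or without si-DYRK1A 1. These counts follow from how the genes were chosen and are given as a description.

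**Figure D2:**
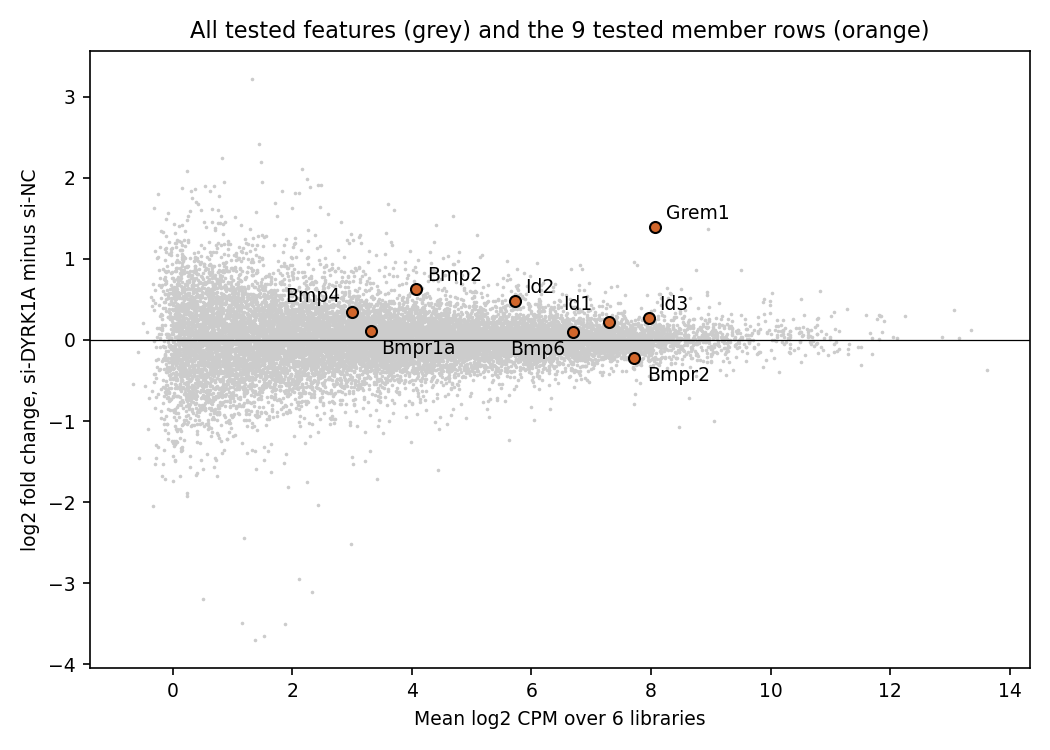
Log2 fold change of si-DYRK1A against si-NC (vertical axis) by mean log2 CPM over 6 libraries (horizontal axis) for all 15513 rows tested (grey) and the 9 member rows (orange). Grem1, at 1.40, stands above nearly all rows of similar level, while the other members lie between -0.22 and 0.63.

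Levels can be set beside each other only per length, and for this the deposited FPKM was used. In si-NC, Id3 was highest at 225 ± 8.74 FPKM, followed by Id1 at 151 FPKM, Bmp6 at 65.4 FPKM, Bmpr2 at 58.5 FPKM and Grem1 at 43.3 ± 2.06 FPKM (SD, n = 3). The unannotated rows of Id2, Bmp2 and Bmpr1a followed at 21.4, 2.87 and 1.48 FPKM, with Bmp4 at 3.20 FPKM between Id2 and Bmp2. In this order Bmp4 and Bmp2 were the only neighbours whose si-NC libraries overlapped, and Bmp4 fell to 2.33 FPKM, below Bmp2, when its unannotated row and the longer length were used.

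In si-DYRK1A, Grem1 was the third in the order at 113 ± 5.06 FPKM (SD, n = 3). The 3 ligands summed to 71.4 ± 3.75 FPKM in si-NC and 78.4 ± 4.77 FPKM in si-DYRK1A, and Bmp6 made up 91.5% of that sum in si-NC. Grem1 FPKM divided by the ligand sum was 0.596, 0.566 and 0.659 in si-NC and 1.61, 1.34 and 1.41 in si-DYRK1A. Against the sum of these 3 ligands Grem1 was the lower in all si-NC libraries and the higher in all si-DYRK1A libraries. That order was set by Bmp6. Bmp4 and Bmp2, which Gremlin-1 is known to bind, lay far below Grem1 in both groups. They had 3.20 and 2.87 FPKM in si-NC and 4.05 and 4.42 FPKM in si-DYRK1A. With Gdf6, another ligand of the BMP family, added to the sum after seeing the data, the ratio was 0.441, 0.414 and 0.469 in si-NC and 1.11, 0.953 and 0.960 in si-DYRK1A, so that Grem1 was then the higher in 1 of the 3 si-DYRK1A libraries. These are mRNA values and say nothing of the amount of protein.

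**Figure D3:**
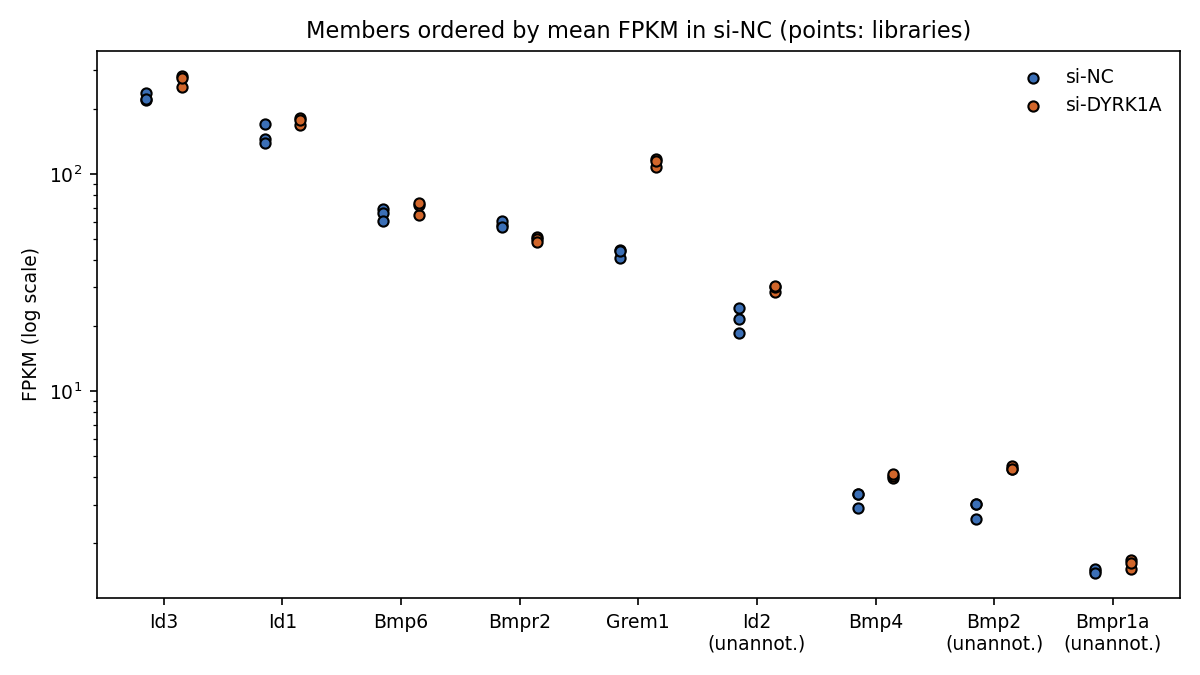
FPKM of each member (log axis) in the libraries of si-NC (blue) and si-DYRK1A (orange), ordered by the mean in si-NC; each point is a library. Grem1 is the fifth in si-NC at 43.3 FPKM and the third in si-DYRK1A at 113 FPKM, and Bmp4, Bmp2 and Bmpr1a lie lowest.

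The 5 annotated genes whose pattern over the 6 libraries was most like that of Grem1 were Epyc, Nipal4, Cyp1b1, Dio3 and LOC102553018. Likeness was the root mean square difference of log2 CPM, centred per gene, among 5753 genes whose log2 CPM averaged at least 3. Epyc, which encodes the small proteoglycan epiphycan, was closest at 0.05, with 12.1 to 14.0 CPM in si-NC and 33.2 to 35.7 CPM in si-DYRK1A. Nipal4 followed at 0.09, and Cyp1b1, a cytochrome P450 enzyme, at 0.12. Dio3, the deiodinase that inactivates thyroid hormone, and the uncharacterized LOC102553018 lay at 0.15 each.

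The other genes of the pathway were followed through a list of 71 genes with known roles, of which 69 had an annotated row. Of these rows 32 had enough counts, and 7 rose, 3 fell and 22 did not pass the edgeR test, that is 21.9% and 9.38% of the 32 against 8.03% and 7.19% of all rows tested. Their median log2 fold change was 0.06. With the counts of each gene and its unannotated rows summed, a choice made after seeing the data, 9 of 49 loci rose and 5 fell. Unannotated rows that also overlap another gene, such as those of Fst and Smoc1, were left out of these sums. Taken singly, 29 unannotated rows overlapped genes of the list, and of the 23 with enough counts 4 rose and 2 fell. These rows include those that were added to the loci.

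Of the antagonists besides Grem1, 3 of 6 annotated rows rose and 1 fell. Over all rows tested 8.03% rose and 7.19% fell, and the counts by role here and below rest on few rows. Nog, which encodes the BMP trap noggin, had 7.29, 10.5 and 8.53 CPM in si-NC and 11.6, 17.0 and 16.9 CPM in si-DYRK1A (log2 fold change 0.79, SE 0.16, adjusted p = 0.00267 with edgeR). The groups did not overlap for Nog, though si-DYRK1A 1 lay close to the highest si-NC library. With FPKM in place of counts the call for Nog was lost, with log2 fold changes of 0.68 for log2(FPKM + 1) (adjusted p = 0.0714 with limma) and 0.77 for log2(FPKM + 0.1) (adjusted p = 0.0713 with limma). Bmper, a secreted BMP-binding protein, rose by 0.28 (SE 0.07, adjusted p = 0.00537 with edgeR). Smoc2, a matricellular protein, rose by 0.25 (adjusted p = 0.0399 with edgeR), a call that was lost whichever library was left out (adjusted p = 0.0591 to 0.125).

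The antagonist that fell was Fstl3, a binder of activin and myostatin. It had 58.2, 54.9 and 50.3 CPM in si-NC and 25.9, 29.0 and 29.6 CPM in si-DYRK1A (log2 fold change -0.95, SE 0.08, adjusted p = 4.18e-08 with edgeR). Its relative Fst, follistatin, was read from a unannotated row and went the other way, with 57.8, 66.8 and 72.0 CPM in si-NC and 106, 101 and 102 CPM in si-DYRK1A (log2 fold change 0.65, SE 0.07, adjusted p = 1.01e-06 with edgeR). The groups of both genes lay far apart. The unannotated row of Smoc1 rose by 0.48 (SE 0.08, adjusted p = 0.000131 with edgeR). The rows used for Fst and Smoc1 also overlap another annotated gene on the same strand, so their counts may not belong to these genes alone. The antagonists Nbl1 (log2 fold change -0.15, adjusted p = 0.0703 with edgeR) and Chrd (0.15, adjusted p = 0.414 with edgeR) did not pass.

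**Figure D4:**
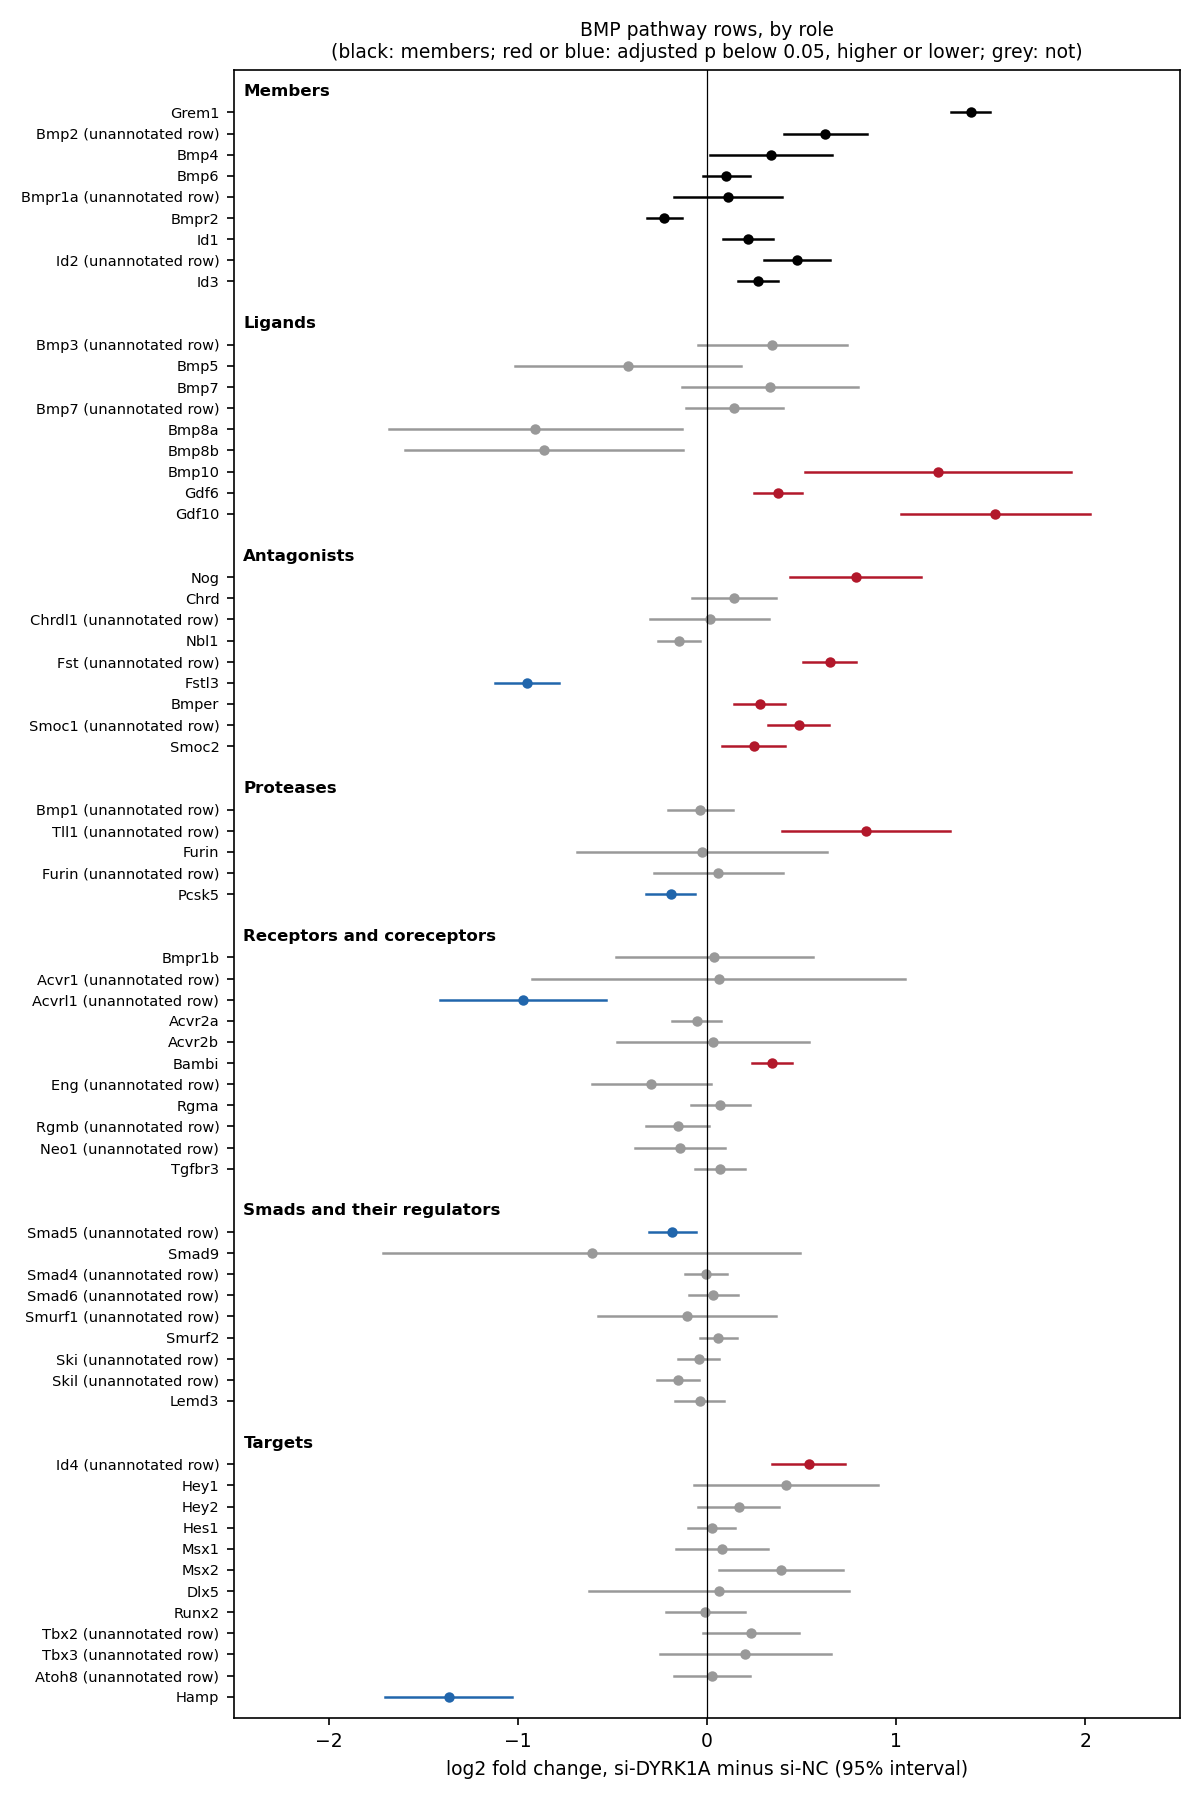
Log2 fold change of si-DYRK1A against si-NC with 95% intervals (horizontal axis) for the members (black) and for the tested rows of the other pathway genes by role, coloured red (higher) or blue (lower) where the adjusted p of edgeR was below 0.05 and grey otherwise. Grem1 at 1.40 has a narrow interval, and of the annotated antagonist rows 3 lie higher and 1, Fstl3, lower.

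Of the other ligands, 3 of 7 annotated rows rose and none fell. Gdf6, a ligand of the BMP family known from joint and bone formation, held the most counts of them, with 93.5, 93.7 and 96.1 CPM in si-NC and 117, 115 and 136 CPM in si-DYRK1A (log2 fold change 0.38, SE 0.06, adjusted p = 0.000162 with edgeR). All its si-DYRK1A libraries lay above si-NC. Gdf10, also named BMP3b, had 14 to 26 counts in si-NC and 55 to 67 in si-DYRK1A (log2 fold change 1.52, SE 0.24, adjusted p = 0.00012 with edgeR). Bmp10, a ligand made by atrial cardiomyocytes, had 11 to 15 counts in si-NC and 43, 22 and 25 in si-DYRK1A (log2 fold change 1.22, SE 0.34, adjusted p = 0.0166 with edgeR). The call for Bmp10 was lost without si-NC 3 (adjusted p = 0.0638 with edgeR) and without si-DYRK1A 1 (adjusted p = 0.147 with edgeR).

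Among proteases that act on antagonists or ligands, the unannotated row of Tll1, a tolloid-like protease that cleaves chordin, rose by 0.84 (SE 0.21, adjusted p = 0.00938 with edgeR). It held 26 to 72 counts, and its call was lost without si-NC 1 (adjusted p = 0.0516 with edgeR) and without si-DYRK1A 1 (adjusted p = 0.0619 with edgeR). Pcsk5, a proprotein convertase, fell by 0.19 on the log2 scale (adjusted p = 0.0414 with edgeR), and that call was lost in 5 of the 6 fits without a library.

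Among receptors and coreceptors, 1 of 6 annotated rows rose and 1 of 5 unannotated rows fell. Bambi, a receptor-like protein without a kinase that dampens signalling, had 97.7, 98.4 and 95.7 CPM in si-NC and 118, 125 and 127 CPM in si-DYRK1A (log2 fold change 0.35, SE 0.05, adjusted p = 5.47e-05 with edgeR), with no overlap. The unannotated row of Acvrl1, the type I receptor of endothelial cells, had 9.20, 8.71 and 8.19 CPM in si-NC and 3.25, 3.67 and 6.32 CPM in si-DYRK1A (log2 fold change -0.97, SE 0.21, adjusted p = 0.00304 with edgeR). All its si-DYRK1A libraries lay below si-NC, with si-DYRK1A 3 nearest to it. The call was lost with log2(FPKM + 1) (adjusted p = 0.0749 with limma) and with log2(FPKM + 0.1) (adjusted p = 0.082 with limma). Of the 8 tested endothelial marker rows 3 were also lower, with a median log2 fold change of -0.16 over the 8, and their part in the value of Acvrl1 was not tested. The coreceptor Tgfbr3 had a log2 fold change of 0.07 (adjusted p = 0.528 with edgeR).

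No annotated row of the Smads and their regulators passed the test, out of 3 with enough counts. Of 6 unannotated rows, that of Smad5, a signal carrier from BMP receptors, fell by 0.18 on the log2 scale (adjusted p = 0.0415 with edgeR), and the call was lost in 5 of the 6 fits without a library. The unannotated row of Smad6 was close to level, with a log2 fold change of 0.03 (adjusted p = 0.782 with edgeR). The unannotated rows of the shared partner Smad4, which also overlaps another gene (log2 fold change -0.0045, adjusted p = 0.972 with edgeR), of the repressors Ski (-0.04, adjusted p = 0.653) and Skil (-0.15, adjusted p = 0.0554) and the row of the ubiquitin ligase Smurf2 (0.06, adjusted p = 0.432) did not pass the edgeR test.

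Of the targets besides the members, none of 8 annotated rows rose and 1 fell, while 1 of 4 unannotated rows rose. The unannotated row of Id4, the remaining gene of the Id family, had 22.0, 19.8 and 19.7 CPM in si-NC and 29.0, 27.9 and 32.3 CPM in si-DYRK1A (log2 fold change 0.54, SE 0.09, adjusted p = 0.000329 with edgeR). Its groups lay apart, as did those of Id2 and Id3. Hamp, which encodes the iron hormone hepcidin, was the target that fell, from 17.9, 13.9 and 15.5 CPM in si-NC to 4.93, 5.65 and 7.70 CPM in si-DYRK1A (log2 fold change -1.37, SE 0.16, adjusted p = 4.4e-06 with edgeR). The groups did not overlap, and the change was opposite in direction to those of the Id genes.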

How the data were processed

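RNA-seq of 6 libraries was analysed, 3 si-NC and 3 si-DYRK1A, grouped and numbered by the sample labels. The authors deposited raw counts per gene, and FPKM values, which equal the counts divided by gene length and by a constant per library. The paper's methods give HISAT2 and Rnor_6.0, whereas the submitters' processing notes name Bowtie 0.12.2 and mm8, a mouse build; the gene identifiers and positions in the deposited tables are those of rat. Which tool and annotation counted the reads, and with what strand setting, was not given in the sources used here, so counts of genes that overlap on opposite strands may be mixed. How reads shared by overlapping rows of the same strand were counted was not given either, so low counts of such rows may be too low. The labels name a TruSeq kit and the methods a NEBNext kit. All per-sample columns were matched to samples.

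Counts were tested by quasi-likelihood in edgeR 4.0.16 under R 4.3.3 (robust fit, TMM, no covariate, two-sided, Benjamini-Hochberg over all rows, threshold 0.05) after filterByExpr (minimum count of 10 scaled to library size in at least 3 libraries, total of at least 15). The fit was checked on simulated counts. Intervals are 95% and floors of 3 counts cover counting error only. For locus sums, counts of unannotated rows that cover at least 50% of a gene and no other gene were added to it. P-values measure the spread between the cultures that were labelled as replicates.

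The members, the pathway lists, the marker lists and the tests were chosen with earlier results of these data known. The genes named were all members, Dyrk1a, every gene of the pathway lists past the threshold and up to 6 others with the highest mean level, and the 5 genes most like Grem1. A gene of the pathway list is not reported here and was left out of its counts. Chrd and Smad6 were named after their values were seen, and so were single markers near 0, Col1a1, Col3a1, Nppa and Actc1. The promoter windows run from 250 bases before to 50 after the start site of each window, and motifs were searched without mismatch. For Id1 and Id3 that site lay inside the annotated gene. The stretches shown for them were therefore cut at the gene start, to 211 and 212 bases. Alternatives were DESeq2 1.42.0, limma-voom, RLE normalization, scaling by library size only, omission of the low-count filter or a minimum of 10 counts throughout, a block on the replicate number, limma 3.58.1 on log2(FPKM + 1) and log2(FPKM + 0.1) where FPKM exceeded 0.5 in at least 3 libraries, annotated genes only, locus sums, and each library left out in turn.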

Additional observations from a re-analysis of the deposited data

How the results depend on the processing

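The log2 fold change of Grem1 was 1.35 to 1.43 without each library in turn. The count of rows called was 2360, against 1199 with log2(FPKM + 1) and 1180 with log2(FPKM + 0.1), both with limma, and 1614 to 2210 without each library in turn. Rows called higher were 1245, against 662 and 655 with these FPKM fits, 823 with DESeq2 and 854 to 1123 without each library. Rows called lower were 1115, against 537 and 525 with the FPKM fits and 746 to 1087 without each library. Annotated pathway rows that rose were 7, against 4 with either FPKM fit and 5 to 6 without each library. Those that fell were 3, against 5 without the filter on low counts, 5 with locus sums and 2 to 3 without each library. Member rows past the threshold were 5 higher and 1 lower, against 3 higher among annotated genes only, and 4 to 5 higher and 1 lower without each library. The fit to annotated genes only leaves out the unannotated rows of Bmp2 and Id2. Id1 was not past the threshold with either FPKM fit or with scaling by library size only. These member counts follow from how the genes were chosen and are given as a description. The level of Bmp4 in si-NC was 3.20 FPKM, against 2.33 FPKM as a locus sum over the longer length. No log2 fold change that was followed through the alternatives changed sign. The order of Bmp4 and Bmp2 by FPKM was reversed with the locus sum. The order of Grem1 and the ligand sum in si-DYRK1A depended on whether Gdf6 was included.

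With the replicate number as a block, 2269 rows were called, 6 annotated pathway rows rose and 2 fell, and the log2 fold change of Grem1 was 1.40. The numbers were not taken to pair the libraries, since the deviations of same-numbered libraries correlated at -0.01 to 0.08 and 3 of 6 libraries correlated best with their own number. The locus sums over the pathway list, the ratios of Grem1 to the ligands and the locus sum of Bmp4 without si-NC 3 were chosen after seeing the data. Among the pathway rows that passed, Bmp10, Gdf10 and Tll1 had the fewest counts, at most 72 per library. The calls for Bmp10, Nog, Smoc2, Tll1, Pcsk5, Acvrl1 and Smad5 were lost in both FPKM fits, and the cause of the lower counts in the FPKM fits was not tested.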
